A study of Mus musculus with 72 samples.

Results

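Kit Hcrtr1 Phlda1 Pet1 neurons are described here as the 200 neurons with the highest joint level of 6 transcripts, out of these 200 and 2150 other dorsal raphe neurons profiled with droplet (10X) single-cell RNA-seq. The members were chosen by measured values. The score of a cell was the mean, over Phlda1, Tmem255a, Crct1, Kit, Tmem114 and Hcrtr1, of the z-score of its log-scaled count, and the 200 highest cells are called members. Because these transcripts chose the members, their levels in the 10X cells are a description only. They are scored again only in hand-sorted cells, which the selection did not use.

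The study sorted fluorescently marked Pet1 neurons from the mouse dorsal raphe (DR), the main serotonergic nucleus of the midbrain. One 10X run used Pet1::Flpe+/-; hM3Dq+/+ mice with a mean age of postnatal day 65.5, and the other used mice heterozygous for En1::cre, Pet1::Flpe and RC::FrePe with a mean age of postnatal day 59. A further 70 neurons were sorted by hand between postnatal days 62 and 119 from mice heterozygous for Pet1::Flpe, RC::FrePe and 1 of 4 cre drivers (Sert, P2ry1, Npy2r or Crh). All groups carry Pet1::Flpe, and recombination leaves a lasting mark, so a marked cell need not still express the driver when it is sorted. The 10X table pools its mice and names neither run nor animal, so it counts as 1 sample, and no test between cells was made. Its barcodes end in 1 (barcode set 1, 869 cells) or 2 (barcode set 2, 1481 cells), and each comparison was repeated within both sets. No barcode sequence occurred in both sets. Xist had no UMI in any cell of barcode set 2, and Ddx3y had none in barcode set 1, so the sets also differ in sex-linked transcripts. Intervals below are 95% intervals and cover counting error only.

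Pet1 (Fev) is a transcription factor that turns on the genes for making, packaging and retrieving serotonin. KIT is a receptor tyrosine kinase whose ligand is stem cell factor, and HCRTR1 is a receptor for orexin, a hypothalamic peptide of wakefulness. Serotonin neurons of the DR share the serotonin genes but differ in co-transmitters, receptors and adhesion molecules.

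Members were well covered libraries. Their median was 68429.5 UMIs per cell (range 16131 to 103596), against 58569 in the other cells (range 12320 to 134079). The median member was thus more deeply sequenced within each set as well, with 68383 against 56206 UMIs in barcode set 1 and 68964 against 60251 in barcode set 2. The part of depth in the results was not tested beyond the thinned values given below. Mitochondrial transcripts made up a median of 7.20% of UMIs in members and 6.32% in other cells. Members came from both sets, with 61 in barcode set 1 (7.02% of its cells, interval 5.41 to 8.93%) and 139 in barcode set 2 (9.39%, interval 7.95 to 11.0%). Of the 200 members, 186 had at least 1 UMI of all 6 transcripts, 13 had 5 and 1 had 4, whereas 379 of the other 2150 cells also had all 6.

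The score had no gap at the boundary. The highest member scored 2.05 and the median member 1.33. The 3 lowest members scored 1.0499, 1.0495 and 1.0488, and the 3 highest cells left out scored 1.0443, 1.0443 and 1.0439. The members are therefore the upper end of a range and not a separate group of cells.

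**Figure D1:**
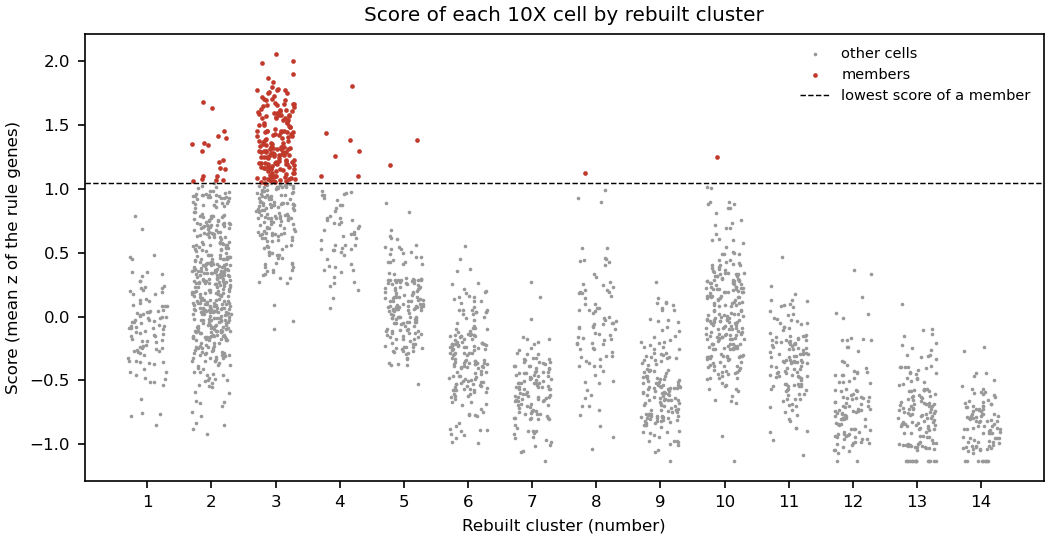
Score of each 10X cell (y axis, mean z of the 6 transcripts) by rebuilt cluster number (x axis), with members in red, other cells in grey and a dashed line at the lowest member. Of the 200 members, 170 lie in cluster 3, and the highest other cells of clusters 2 and 3 lie just under the line, with those of clusters 10, 8 and 4 next.

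The 6 transcripts themselves, as a description, were higher in members in both barcode sets. Kit lies on chromosome 5 (GRCm38, 75574916 to 75656722, plus strand) and Hcrtr1 on chromosome 4 (130130217 to 130139359, minus strand). Kit was at 105 CPM (the share of all summed UMIs, scaled to 1e6) in members and 37.3 CPM in other cells of barcode set 1, and at 108 against 36.0 CPM in barcode set 2. Hcrtr1 was at 147 against 63.5 CPM and at 172 against 52.5 CPM. Phlda1, which encodes a pleckstrin homology-like domain protein, was at 248 against 73.0 CPM and at 198 against 61.0 CPM. Crct1 had the largest ratio of the 6, with a log2 ratio of 2.34 over both sets, and Tmem255a the smallest, at 1.06. Members were not the highest for all 6, since cells of rebuilt cluster 4 had more Hcrtr1 (239 CPM) and Tmem255a (491 CPM) than members (164 and 398 CPM).

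The cells were also clustered anew with the published settings. This returned 14 clusters, numbered by lists of marker genes. The list for number 3 was the same 6 transcripts that chose the members. Cluster 3 held 170 of the 200 members (85.0%, interval 79.3 to 89.6%), cluster 2 held 19, cluster 4 held 7, cluster 5 held 2, and clusters 8 and 10 held 1 each. Members were 53.1% of the 320 cells of cluster 3, so 150 of its cells were not members. The 6 transcripts were among the variable genes used for clustering. With them left out of the clustering, the cluster numbered 3 held 169 members. The numbering still used them, so neither count in cluster 3 is independent of the selection. By distance between centres in the principal components, cells of clusters 3, 2 and 4 that were not members lay nearest to the members, at 4.21, 16.3 and 18.0 units, and cluster 13 lay farthest at 38.7 units.

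Members were serotonin neurons by their transcripts. Every member had a Fev UMI, which the filter of the study also required. Tph2, the rate-limiting enzyme of serotonin synthesis in neurons, was at 3064 CPM in members and 2737 CPM in other cells of barcode set 1, and at 3324 against 2828 CPM in barcode set 2. The log2 ratio of Tph2 over both sets was 0.22 (interval 0.20 to 0.23). The transporter genes Slc6a4 and Slc18a2 had log2 ratios of 0.13 and 0.20. None of the 14 genes for serotonin enzymes and transport and none of the 6 serotonin transcription factors in the filter passed the 2-fold limit in either direction, with medians of 0.17 and -0.01. Over all 9908 genes with a mean of at least 5 CPM, the median log2 ratio was -0.03, and 0.454% were higher and 2.42% lower by this limit, so lists of this size would seldom hold a called gene.

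Markers of other cell types were detected at low levels in members. The sum of 11 glial genes was 31.1 CPM in members and 33.5 CPM in other cells, most of it from Mbp at 20.4 and 22.2 CPM, and 41 of the 200 members had no UMI of this list. Mbp was thus at a level close to that of some genes named below. The sums were 3.73 against 4.90 CPM for 10 microglial and macrophage genes and 4.78 against 7.80 CPM for 8 vessel genes. Cx3cr1, a microglial receptor, was at 1.72 CPM in members and 0.37 CPM in other cells, while the microglial genes P2ry12, Ctss and Tyrobp had no UMI in members. The sum of 6 genes that define other neurons of the region was 0.224 against 1.57 CPM, and 4 of them, Th, Slc17a6, Slc6a5 and Chat, had no UMI in members. The sum of 4 blood and mast cell genes was 0.373 against 0.303 CPM. Of these, Hbb-bt and Alas2 had no UMI in members, and 195 of the 200 members had no UMI of this list. No member and 14 of the other cells were called doublets.

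Compared with all other cells, 45 genes were at least 2-fold higher in members and 240 at least 2-fold lower, the shares of the 9908 genes (0.454% and 2.42%) given above. Of these, 33 (0.333%) were also higher and 198 (2%) also lower by this limit within each barcode set. No replicate error stands behind these counts, and since the members were selected on 6 transcripts of the same cells, they are a description.

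**Figure D2:**
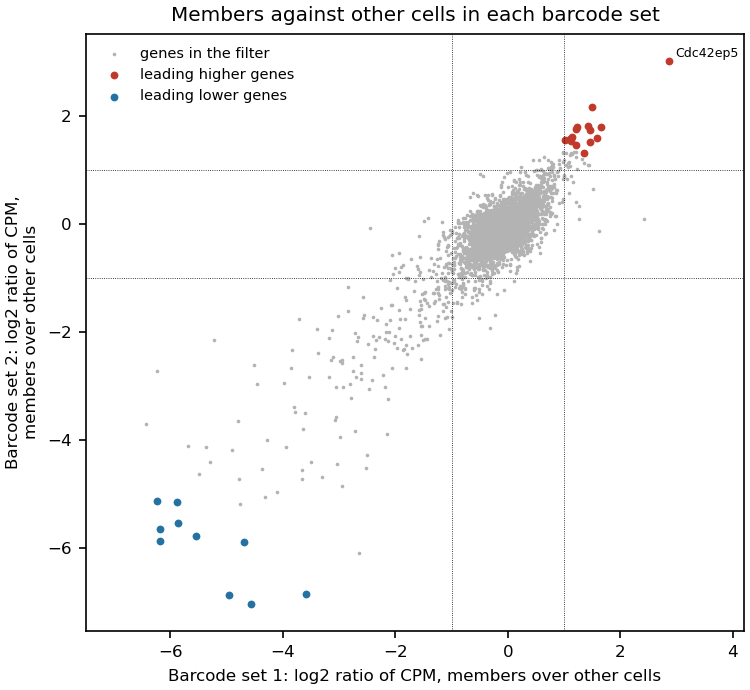
The log2 ratio of CPM in members over other cells in barcode set 1 (x axis) and barcode set 2 (y axis) for genes with a mean of at least 5 CPM, with dotted lines at a 2-fold difference. The 15 leading higher genes are red, and the 10 of the 15 leading lower genes that have UMIs in members of both sets are blue.

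The gene with the highest ratio outside the 6 was Cdc42ep5, which encodes an effector of the small GTPase CDC42 that shapes the cytoskeleton. The gene lies on the minus strand of chromosome 7 (GRCm38, 4151260 to 4164860) and is protein coding. It was at 29.5 CPM in members and 4.1 CPM in other cells of barcode set 1, and at 31.5 against 3.9 CPM in barcode set 2. Both sets thus gave a ratio of similar size, with a log2 ratio of 2.97 (interval 2.78 to 3.16) over both. After thinning to 20000 UMIs per cell, 44.9% of members and 5.57% of other cells had a Cdc42ep5 UMI, against 0.943% of cluster 12, whose cells were thinned in the same way. Without thinning the shares were 72.0% of members and 11.2% of other cells.

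Sox14, a transcription factor, was at 23.1 against 10.2 CPM in barcode set 1 and at 25.2 against 9.92 CPM in barcode set 2, with a log2 ratio of 1.29 (interval 1.11 to 1.47). Its thinned share was 32.8% of members and 14.4% of other cells. Of 56 subtype transcription factors in the filter, 2 were higher and 18 were lower, against 0.454% and 2.42% of all genes. Among the lower ones, Pou3f2 had 4 UMIs in all members (0.299 against 11.1 CPM), Zfp536 had 2, and Nr2f2 and Maf had log2 ratios of -4.11 and -4.06. Zeb2 and Foxa1 were at 0.299 CPM in members and at 10.0 and 6.10 CPM in other cells.

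Of 10 GABA and glutamate transmitter genes in the filter, Gad2 was higher and Slc17a8 lower in members, against 0.454% and 2.42% of all genes. Gad2, which encodes the GABA-synthesizing enzyme GAD65, was at 159 against 79.9 CPM in barcode set 1 and at 277 against 110 CPM in barcode set 2, with a log2 ratio of 1.28. Gad1, which encodes the other such enzyme, GAD67, was at 49.3 against 47.6 CPM, a log2 ratio of 0.05. After thinning, 84.8% of members had a Gad2 UMI and 25.8% a Gad1 UMI. Slc32a1, the vesicular GABA transporter, had 2 UMIs in all members. Slc17a8, the vesicular glutamate transporter VGLUT3, was at 3.19 against 165 CPM in barcode set 1 and at 10.5 against 180.0 CPM in barcode set 2, with a log2 ratio of -4.40 (interval -4.68 to -4.13). Nos1, which makes nitric oxide, was at 1.05 against 26.2 CPM. Against the cells of clusters 2 and 4, none of the 10 GABA and glutamate genes was higher and 1 was lower. There 1.17% of all genes were higher and 1.26% lower. Gad2 was thus not 2-fold higher in members than in these cells.

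Among 8 arousal and monoamine receptor genes in the filter, no gene passed the limit in members, which is near the shares over all genes (0.454% higher and 2.42% lower). Hrh1, a histamine receptor, came closest at 40.2 against 21.1 CPM, a log2 ratio of 0.93 (interval 0.79 to 1.06), with 1.05 in barcode set 2 and 0.79 in barcode set 1. Hrh3 was at 31.0 against 27.8 CPM. Hcrtr2, the other orexin receptor and not part of the score, was at 36.1 against 21.8 CPM in barcode set 1 and at 36.3 against 25.4 CPM in barcode set 2, with a log2 ratio of 0.59. Of 6 serotonin receptors, 2 were lower, against 2.42% of all genes. Htr5b had 1 UMI in all members, against 14.9 CPM in other cells, with a log2 ratio of -7.64 (interval -12.95 to -5.16). Htr2c also had 1 UMI, against 7.79 CPM, with a log2 ratio of -6.70 (interval -12.01 to -4.22). The autoreceptor genes Htr1a and Htr1b had log2 ratios of 0.13 and 0.46.

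Of 20 peptide genes in the filter, 7 were lower and none higher in members, with a median log2 ratio of -0.59. Over all genes lower calls (2.42%) also outnumbered higher ones (0.454%). Sst, which encodes somatostatin, had 5 UMIs in all members and was at 0.373 against 31.1 CPM. It had no UMI in the members of barcode set 1, where it was at least 49.5-fold lower when 3 counts stand for the limit. Nts and Adcyap1 had log2 ratios of -4.20 and -2.70. Of the 16 peptide and lipid receptor genes, 7 were lower and 1 was higher. The median of this list was -0.82. Against the cells of clusters 2 and 4, where 1.17% of all genes were higher and 1.26% lower, 5 peptide genes were higher and 2 lower (median -0.05), and 4 receptor genes were higher and 1 lower (median 0.41). Crhbp, which binds the stress peptide CRH outside the cell, was at 13.5 against 5.0 CPM in barcode set 1 and at 20.7 against 5.8 CPM in barcode set 2.

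Channel and receptor genes differed in both directions. Grin3a, an NMDA receptor subunit, was at 29.5 against 10.7 CPM in barcode set 1 and at 48.1 against 16.7 CPM in barcode set 2, with a log2 ratio of 1.54 (interval 1.40 to 1.68). Glra1, a glycine receptor subunit, had a log2 ratio of 1.09. Of 28 ionotropic receptor genes in the filter, 3 were higher and 2 lower, where 0.454% of all genes were higher and 2.42% lower. The 2 lower ones were Grin2a (11.3 against 39.0 CPM) and Gabrg3 (2.16 against 31.7 CPM). Of 37 calcium, sodium, HCN and TRP channel genes in the filter, none was higher and 3 were lower, against these same shares of all genes. Their median was -0.05. Scn7a, a sodium channel gene outside this list, was at 33.1 against 14.2 CPM and at 42.6 against 12.3 CPM in barcode sets 1 and 2. Among 36 potassium channel genes, Kcnip2 was higher and 4 were lower, with a median of -0.29. Prkcq and Prkca, which encode protein kinase C isoforms, were higher with log2 ratios of 1.06 and 1.01, and in barcode set 1 neither passed the limit (0.64 and 0.76). Prkcq was also a marker gene used to number cluster 4. Rgs10, a regulator of G-protein signalling, was at 5.75 against 127 CPM.

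Genes of the cell surface and of heparan sulfate also differed. Hs3st4 (GRCm38, chromosome 7, 123982869 to 124398989, plus strand), which adds sulfate at the 3-O position of heparan sulfate, was at 185 against 67.0 CPM in barcode set 1 and at 186 against 55.6 CPM in barcode set 2, with a log2 ratio of 1.64. Hs3st1, an enzyme of the same kind, had a log2 ratio of 1.09, and 5 of the 23 heparan sulfate genes in the filter were lower, against 2.42% of all genes. Of 40 axon guidance genes, Sema6a was higher and 13 were lower, among them Ntng1 (0.672 against 32.5 CPM) and Slit2 (5.45 against 62.4 CPM). Of 63 synaptic adhesion genes, Cntn3 was higher at 14.7 against 6.34 CPM and 11 were lower, and of 23 cadherins and protocadherins 6 were lower. None of 16 genes that act with KIT passed the limit, a count that the shares over all genes (0.454% higher and 2.42% lower) do not set apart from other genes. Of 22 genes for receptor tyrosine kinases and their ligands besides, 3 were lower, with Met at 1 UMI in all members.

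**Figure D3:**
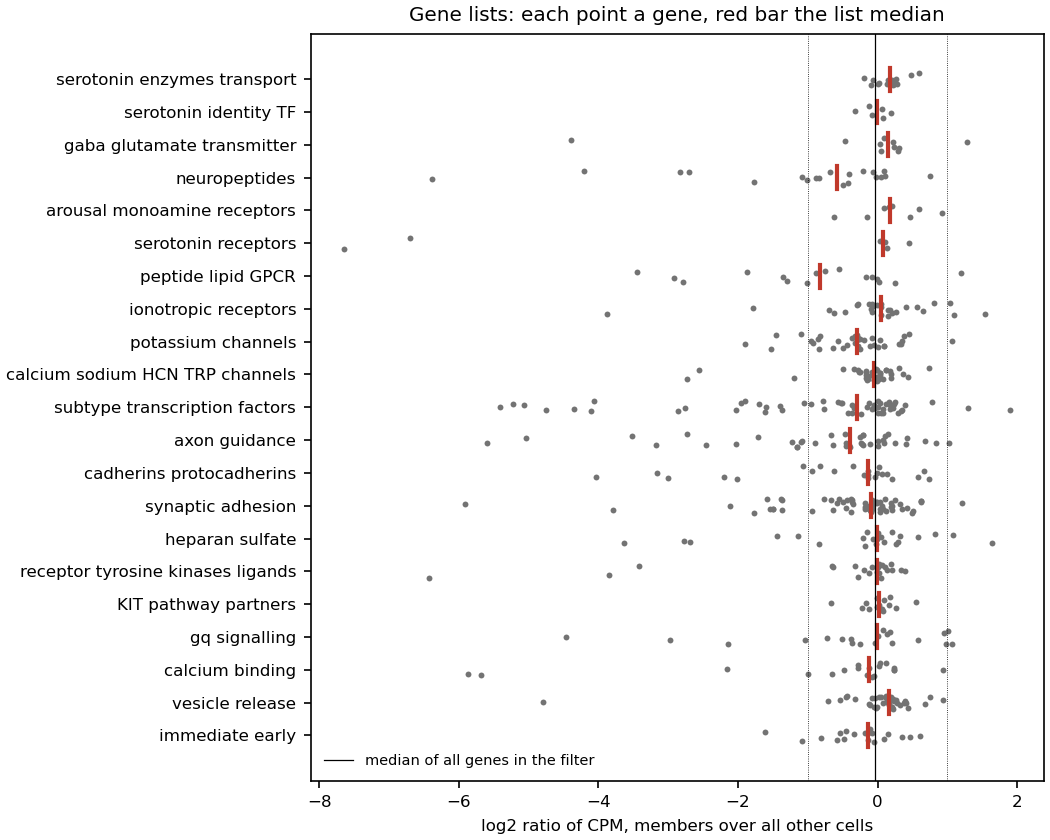
The log2 ratio of CPM in members over all other cells (x axis) for each gene in the filter of a list (rows), with the list median in red, the median of all genes as a solid line and dotted lines at a 2-fold difference. Lower genes reach far beyond the dotted line in most lists, and higher genes stay below 2 on this axis.

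Of the other leading higher genes, Peli2, a ubiquitin ligase gene, was at 57.9 against 17.1 CPM and Prph, the intermediate filament gene peripherin, at 243 against 91.8 CPM. Klhl14 and 4930426D05Rik, which is annotated antisense and overlaps it, had log2 ratios of 1.57 and 1.58, and their reads may not be fully separable. Mt2, a metallothionein, and Tmtc1 had log2 ratios of 1.45 and 1.39. Pdgfd, a growth factor gene, Ust, a sulfotransferase gene, and Iqcg had 1.36, 1.34 and 1.33. Lower genes with few UMIs in members were Rspo3 (0.597 against 42.8 CPM), Tpbg (0.373 against 22.4 CPM), Calb2 (1.42 against 73.0 CPM), Pcp4l1 (1.27 against 67.0 CPM), Necab1 (0.224 against 13.1 CPM) and Kctd8 (0.373 against 16.2 CPM).

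The members were then set against the 480 cells of clusters 2 and 4 that were not members. Of these cells, 427 were of cluster 2 and 53 of cluster 4, so the summed levels weigh cluster 2 more. Their medians were 57026 UMIs and 5.46% mitochondrial UMIs per cell, against 68429.5 and 7.20% in members. Here 116 genes (1.17%) were higher and 125 (1.26%) lower, and 80 (0.807%) and 89 (0.898%) were so within each barcode set. Of the 45 genes higher against all other cells, 16 were also higher in this comparison, as were 83 of the 240 lower genes also lower. Prph, Pdgfd and Hs3st4 thus differed little here, with log2 ratios of -0.04, -0.15 and 0.26, whereas Cdc42ep5 and Grin3a had ratios of 1.53 and 1.58. Against cluster 4 alone the ratio of Cdc42ep5 was -0.011.

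Cbln2, which encodes a synaptic organizer, had the highest ratio in this comparison. It was at 60.2 CPM in members and 3.46 CPM in these cells, a log2 ratio of 4.12 (interval 3.81 to 4.45). Hcrtr2 was at 36.2 against 4.94 CPM, with log2 ratios of 2.90 and 2.84 in barcode sets 1 and 2. Crh, the stress peptide gene, was at 9.33 against 1.11 CPM. Crhr2, which encodes a receptor for peptides of the CRH family, was at 4.63 against 0.594 CPM. Cntn3, Npy2r and Nrp2 had log2 ratios of 3.04, 2.90 and 2.89. Against all other cells Cbln2 and Crh had ratios near 0, at -0.08 and -0.07, and Npy2r was lower.

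Trh, the thyrotropin-releasing hormone gene, was at 2.24 CPM in members and 57.8 CPM in the cells of clusters 2 and 4, a log2 ratio of -4.69 (interval -5.26 to -4.17). Cd24a, a surface glycoprotein gene, was at 0.970 against 29.2 CPM, a log2 ratio of -4.91. Ngb, the neuroglobin gene, and Luzp2 had log2 ratios of -3.80 and -3.48. Crym, which encodes a thyroid hormone-binding protein, was at 6.72 against 48.1 CPM, but against cluster 4 alone its log2 ratio was 1.42 and that of Ngb was 0.93. Pax5 and Klf5 had log2 ratios of -0.92 and -0.91, and Nr3c1, the glucocorticoid receptor gene, of -0.24.

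**Figure D4:**
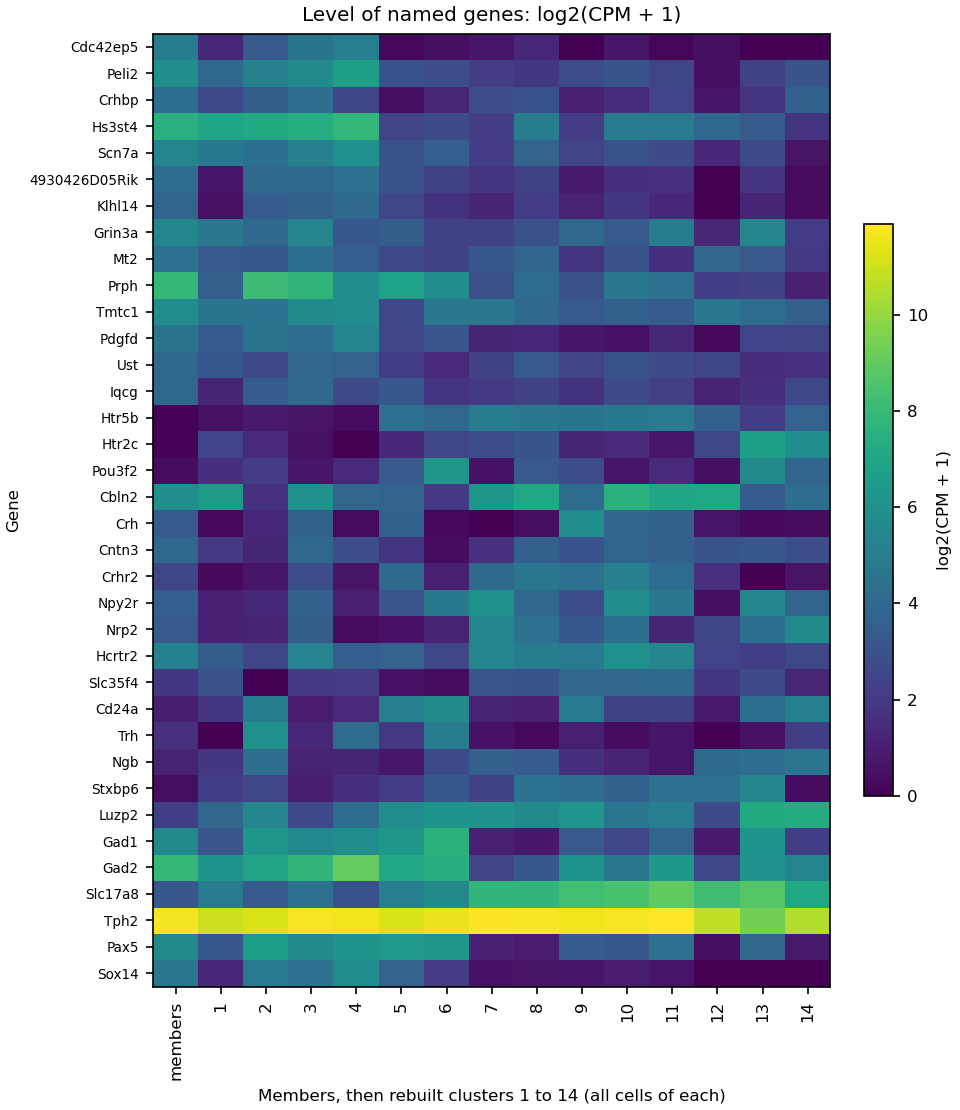
Levels of named genes, as log2(CPM + 1) in colour, in members and in all cells of each rebuilt cluster (columns), with genes as rows. Members are the highest column for 4 of the 14 leading higher genes shown and first or second for 13 of them, with cluster 4 above them for genes such as Peli2.

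Members varied among themselves by cluster. Within cluster 3, Cdc42ep5 was at 31.0 CPM in members against 15.3 CPM in the other cells, and Peli2 at 60.0 against 41.0 CPM. The leading genes were chosen for being higher in members than in other cells, those of cluster 3 included, so these levels are a description. The 30 members outside cluster 3 had lower levels than the 170 in it for 9 of the 14 leading genes reported. Grin3a was at 18.7 CPM in the former and 46.6 CPM in the latter, and Cdc42ep5 was at 30.6 and 31.0 CPM. Hcrtr2 was at 14.3 and 40.1 CPM, Cbln2 at 21.2 and 67.2 CPM, and Trh at 7.89 and 1.23 CPM.

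The manually sorted neurons, which the score did not use, held between 756872 and 7664103 reads per cell in 8 groups. The labels give more than 1 age in 7 of the 8 groups, so these hold cells of more than 1 animal, but they do not name the animal of a cell, and the cells are described without a test. The same 6 transcripts were scored in them as the mean z of log2(CPM + 1). Groups are named by cre driver, so a Sert neuron is one from Sert::cre mice. Medians were highest in Sert neurons of the dorsomedial DR at 0.73 (range 0.02 to 1.22), in Crh neurons of the rostral DR at 0.68 (range -1.04 to 1.15) and in Sert neurons of the dorsolateral DR at 0.45 (range 0.02 to 1.06). P2ry1 neurons of the caudal DR were lowest at -0.99 (range -1.40 to -0.31), and none of these 10 cells was above 0. The ranges of neighbouring groups overlapped.

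A second score used the 14 of 15 leading genes, chosen in the 10X cells, that were found in this table. Its medians were 0.77 in rostral Crh neurons, 0.75 in dorsomedial Sert neurons and 0.40 in dorsolateral Sert neurons, and were below 0 in the other 5 groups. Across the 70 cells the scores had a Pearson r of 0.76 and a Spearman rho of 0.69, and r was 0.76 without the 2 cells farthest from the median of the 6-transcript score. Within groups r ranged from 0.21 in rostral Npy2r neurons to 0.90 in dorsomedial Sert neurons. These are descriptions over cells that share dissections, with no p-value.

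**Figure D5:**
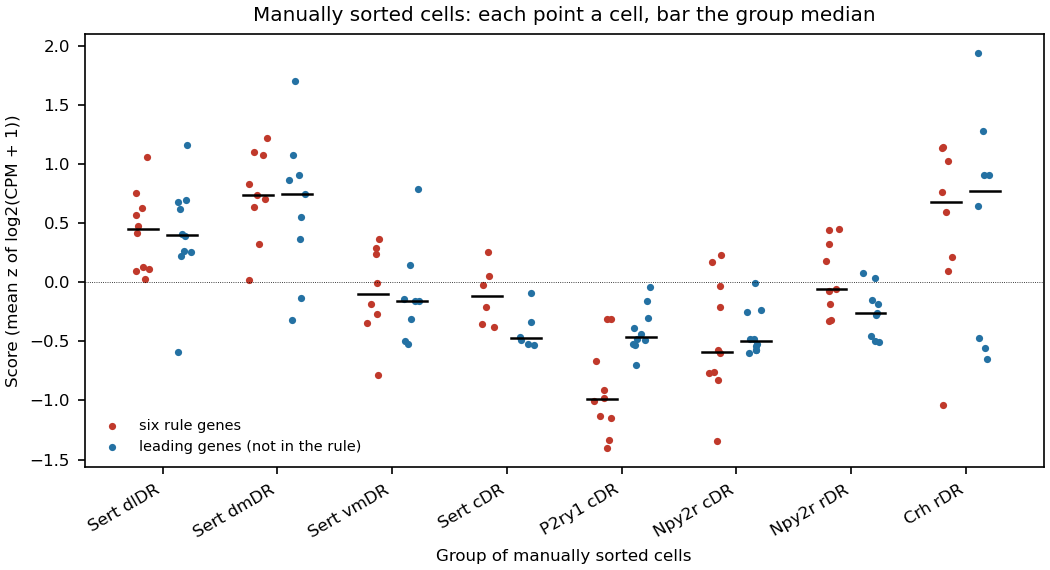
Score of each manually sorted cell (y axis, mean z of log2(CPM + 1)) by group (x axis) for the 6 transcripts in red and for the leading genes outside the rule in blue, with group medians as bars. Dorsolateral and dorsomedial Sert neurons and rostral Crh neurons have the only medians above 0 for both scores.

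The single leading genes did not all follow the order of the score. Mt2 had its highest median in caudal P2ry1 neurons (4.10 CPM, against 0.792 CPM in dorsomedial and 0 in dorsolateral Sert neurons), and Tmtc1 in ventromedial Sert neurons (34.8 CPM, against 24.8 and 13.9 CPM). The median of Grin3a was 4.32 CPM in rostral Crh neurons, 3.49 CPM in ventromedial, 0.228 CPM in dorsomedial and 0 in dorsolateral Sert neurons. Sox14 had reads in 6 of 10 dorsolateral Sert neurons, 6 of 9 dorsomedial Sert neurons and 4 of 8 rostral Crh neurons, and also in 3 of 8 ventromedial Sert neurons and 1 of 9 rostral Npy2r neurons. It had none in the caudal Sert, P2ry1 and Npy2r neurons. Crhbp had reads in 5, 6 and 3 cells of the first 3 of these groups, in 2 of 10 caudal Npy2r neurons (11.2 and 73.6 CPM) and in 1 of 9 rostral Npy2r neurons. The highest rostral Crh neuron was at 14.8 CPM, and no ventromedial or caudal Sert and no P2ry1 neuron had Crhbp reads. Gad2 had a median of 98.0 CPM in dorsomedial Sert neurons and 86.1 CPM in rostral Crh neurons, 51.4 CPM in dorsolateral Sert neurons and 33.5 CPM in rostral Npy2r neurons, and 0 in ventromedial Sert neurons and the caudal groups. Trh had a median of 51.5 CPM in dorsolateral Sert neurons, 0.187 CPM in dorsomedial ones and 0 in the other groups, and reads in 1 of 8 rostral Crh neurons.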

How the data were processed

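The authors mapped the 10X reads to mm10 with Cell Ranger 3.0.2 and deposited UMI counts for cells and genes that passed their filters on genes detected, glial, mitochondrial and ribosomal transcripts, Fev and outlying totals. The counts of the manual cells, mapped with STAR 2.5.4, were deposited unfiltered. Neither count table is normalized. The members and gene lists were chosen with earlier results of these data known.

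UMIs were summed over the cells of a group and scaled to CPM. Intervals at 95% were exact Poisson for a level, exact conditional binomial for a ratio and Clopper-Pearson for a share. A gene was called at a 2-fold difference if its mean was at least 5 CPM, with the 6 score genes left out. Where a group had no UMI, 3 counts were the limit. Named genes are the 15 highest and 15 lowest against all other cells and the 8 highest and 8 lowest against clusters 2 and 4, if past the limit in both barcode sets too, genes named by the study, and up to 4 genes of a list in each direction. Some genes selected this way are left out of the text, while the counts for gene lists and the score of leading genes hold them. Sex-linked genes were left out of the first 2 sets. Thinning to 20000 UMIs left out 53 cells, 2 of them members. Clusters came from Seurat 5.3.0 in R 4.3.3 with 2000 variable genes, components 1 to 50 without 6 and 7, 20 neighbours and a resolution of 0.9. Doublets were called with Scrublet in scanpy 1.11.5 at an expected rate of 5%. Other steps used Python 3.11.15, numpy 2.4.6, scipy 1.17.1, pandas 2.3.3 and matplotlib 3.10.9. The ratios were tested on simulated data. Alternatives covered the score, number of members, depth, filter, doublets, barcode sets, clustering and pseudocount.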

Additional observations from a re-analysis of the deposited data

Results flagged for a closer look

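One manually sorted dorsolateral Sert neuron stood apart from the other 9 in the score of leading genes, at -0.59. This was 1 of 16 combinations of group and score examined, and chance flags about 1 in 20. In 9 named genes the log2 ratio of members over other cells had opposite signs in barcode sets 1 and 2. The values were 0.34 and -0.50 for Nrp2, -0.077 and 0.082 for Gad1, 0.39 and -0.21 for Klf5, 0.034 and -0.18 for En1, and 0.13 and -0.023 for Oprl1. They were 0.080 and -0.12 for Spr, -0.064 and 0.25 for Pik3r1, 0.079 and -0.36 for Gab2, and 0.25 and -0.078 for Htr5a. The difference between the sets was not tested, and for 0 of the 9 genes did the counting intervals of both sets leave out 0.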

How the results depend on the processing

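No paired analysis was possible because the results come from no test and the 10X cells carry no replicate. Against all other cells, the 45 higher and 240 lower genes became 129 and 537 with a filter of 1 CPM and 19 and 82 with a filter of 20 CPM, since other numbers of genes were examined. Under the other alternatives run, the counts ranged from 39 to 58 higher and from 219 to 278 lower. A score from thinned counts chose 148 of the same 200 members, and leaving out Crct1 chose 151. Against cluster 4 alone 303 genes were higher, against 116 for clusters 2 and 4 together. Of the ratios past the 2-fold limit, those of 16 named genes changed sign, all in the comparison with clusters 2 and 4. Smaller ratios changed sign against all other cells as well, among them those of the 9 genes that differed in sign between the barcode sets. Against cluster 4 alone they were -0.011 for Cdc42ep5, -0.11 for Tmtc1, -0.23 for Slc35f4, 0.93 for Ngb, 1.42 for Crym, -0.22 for Gabrg3, -1.04 for Grin2a, -0.048 for Cadm2, 1.19 for Rgs10, -0.34 for Nts, 1.83 for Gpc5, 0.080 for Ret, 1.15 for Sema5a, 1.01 for Kcnip4 and -0.65 for Rab3b. For Met the ratio was 0.72 in barcode set 1 alone. The cause was not tested. A single cluster 3 held 166 members at a resolution of 0.7. It held 169 with the 6 transcripts left out of the clustering but not of the numbering. At a resolution of 1.5 and with components 1 to 50, 2 clusters carried that number, with 179 and 169 members in both together and 157 and 127 in the one that held more of them. The r over manual cells was 0.79 with a pseudocount of 10 CPM. With 1 to 5 UMIs in all members, the depth limits the size of the lowest ratios.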

Other observations

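Some transcripts outside the score were present in a subset of members. Dlk1, which encodes a secreted and membrane-bound EGF-repeat protein, had 5 or more UMIs after thinning in 81 of 198 members and none in 60, and in 25.4% of other cells it had 5 or more. Slamf1, a receptor gene best known from lymphocytes, had 5 or more in 24 members, and all 24 were in barcode set 2. Of other cells, 5.05% had 5 or more. The level of Slamf1 was 3.44 CPM in members and 2.79 CPM in other cells of barcode set 1, and 80.3 and 50.3 CPM in barcode set 2. Gad1 had 5 or more UMIs in 21 members and none in 147, and 9.10% of other cells also had 5 or more. Asb4, which encodes a ubiquitin ligase adaptor, had 5 or more in 23 members and in 30.9% of other cells.

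Atg2a, an autophagy gene, had 5 or more UMIs in 3 members, all of barcode set 1, and reached 40 UMIs in 1 of them. Gm8730, a ribosomal protein pseudogene, was at 278 CPM in members of barcode set 1 and 14.3 CPM in those of barcode set 2, and at 265 and 15.2 CPM in other cells.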
